A study of Mus musculus with 8 samples.

Results

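E2F3 L430Q was set against WT in proliferating mouse embryonic fibroblasts (MEFs), and the genotype and growth state in the sample labels picked 4 of the 8 arrays of the series for this comparison. The 2 WT arrays held clones 1 and 16, and the 2 E2F3 L430Q arrays held clones 2 and 4, where "clone" is the labels' word for a MEF isolate. All 4 came from C57BL/6 embryos at embryonic day 13.5 and grew in medium with 10% fetal bovine serum; the mutant MEFs were homozygous, the WT MEFs were littermate controls from crosses of heterozygotes, and the neomycin cassette of the knock-in allele had been removed with Mox2Cre. The other 4 arrays held the same clones after 72 h without serum and enter only where they are named. Whether a clone is 1 embryo, and which of the independent knock-in lines each mutant clone came from, is not given in the sources used here. The p-values therefore reflect the spread among these 4 arrays alone.

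E2F3 is an activating member of the E2F family of transcription factors, which bind DNA with a DP partner and switch on genes for DNA replication and entry into S phase. The retinoblastoma protein (Rb) binds the transactivation domain of activating E2Fs and holds those genes down, and cyclin-dependent kinases release this hold late in G1 by phosphorylating Rb. L430Q replaces a leucine by a glutamine in the Rb-binding region of E2F3, so the comparison asks what happens to gene expression in growing fibroblasts when E2F3 carries a change meant to weaken its contact with Rb. Early-passage MEFs are a mixed mesenchymal culture that makes abundant collagen and contractile proteins, and embryo preparations can carry over other cells, macrophages among them.

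Each probe of the Illumina bead arrays gives a fluorescence intensity and a detection p-value against negative control beads. Levels are given as normalized log2 signal, and 9421 features (8701 named genes and 720 probes without a gene symbol) were detected at p under 0.05 on at least 2 of the 4 arrays. The number of arrays limits the precision. Median raw intensity was 114.1 to 127.3 and 12141 to 12319 of 25697 probes were detected per array, so no array was dim. The 11 fibroblast markers with a probe were detected on every array. Eif2s3y, a Y-linked gene, was at 7.40 in WT clone 1 and 7.53 in E2F3 L430Q clone 2 but at 4.28 in WT clone 16 and 4.38 in clone 4, while Xist ran the other way (4.53 and 4.63 against 6.80 and 7.15). Each genotype thus held a clone of each pattern, and this difference did not separate the groups.

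No gene passed limma's test at a Benjamini-Hochberg adjusted p under 0.05 in either direction (0 of 9421 features higher and 0 lower, or 0% of those tested), and the smallest adjusted p was 1. Without clone 4, limma called 259 features higher and 125 lower in clone 2, with its lone array assumed to vary like WT, and without any other array it called 0. At an unadjusted p under 0.05, 29 features were higher (0.308%) and 72 lower (0.764%) in E2F3 L430Q, and the test named in the study's methods also gave 0 in each direction after adjustment. With 2 arrays against 2, an exact permutation test of a single gene cannot give a two-sided p below 0.333. In simulated data of the same size limma recovered 16.1% of changes of 1 log2 unit, 94.3% of changes of 2 and 99.1% of changes of 3. Whether the simulated noise matched the spread between these clones is not given. Mrc1 did not pass at a difference of -2.38, so these shares do not show that changes of such sizes were absent. The results are therefore described by how the 4 arrays lie: a gene is called separated where both E2F3 L430Q arrays lay above, or both below, both WT arrays, and its margin is the log2 distance between the nearest arrays of the groups, negative where E2F3 L430Q was lower.

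By that measure 839 features (8.91%) were higher and 1164 (12.4%) lower in both E2F3 L430Q clones than in both WT clones. Only 161 of them (1.71%) were higher, and 254 (2.7%) lower, with the nearest arrays over 0.2 apart. The group means differed by over 2-fold for 24 of the higher and 34 of the lower features. The direction of the many small separations depended on the scaling: of all separated features 41.9% were higher here, but 86.8% were higher when the arrays were scaled to a common median, which moved the median difference of all genes from -0.03 to 0.13.

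The 2 mutant clones differed from each other more than the WT clones did. The SD over genes of the difference was 0.719 log2 units between clones 2 and 4 and 0.39 between WT clones 1 and 16, and 849 features were over 2-fold apart between the mutant clones against 185 between the WT clones. A gene is described as moved in 1 clone only where that array lay over 1 log2 unit outside the range of the other 3 arrays and the gene was not separated. Clone 2 alone was higher for 222 features (2.36%) and lower for 94 (0.998%), whereas clone 4 alone was higher for 1 feature (0.0106%) and lower for 26 (0.276%). For 11 features both limits were met, with clone 2 above and clone 4 below. For comparison, a WT array lay as far outside the other 3 for at most 7 features in a direction, whether separated or not, against 261 higher and 115 lower for clone 2.

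**Figure D1:**
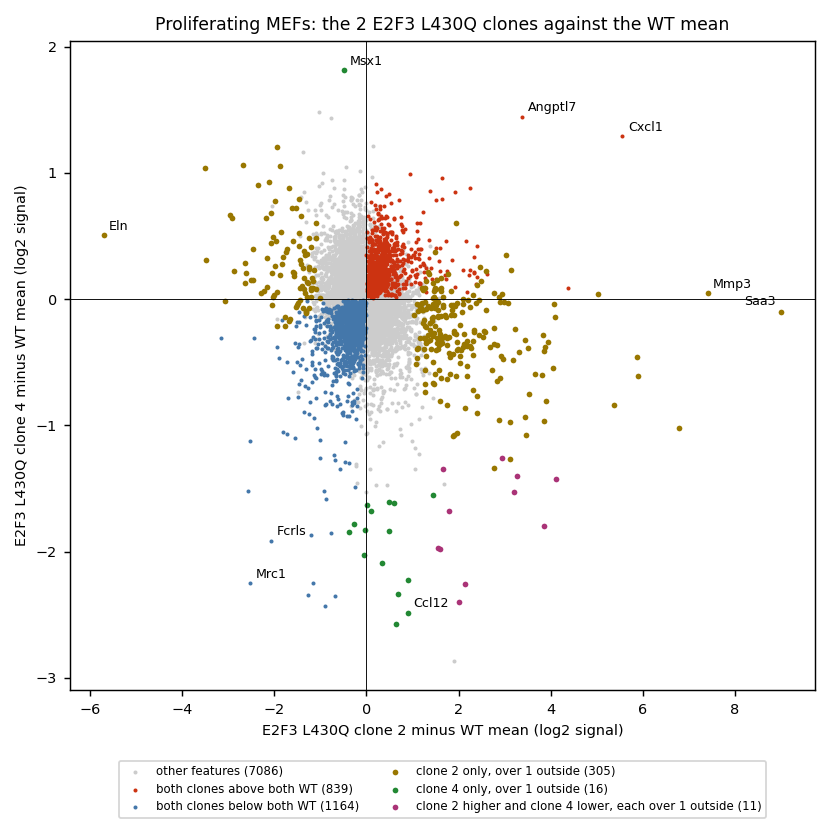
Difference from the WT mean (log2 signal) in E2F3 L430Q clone 2 (x axis) and clone 4 (y axis); each point is 1 of 9421 features, coloured by how its 4 arrays lie. The x axis reaches far beyond the y axis: Saa3, Mmp3 and Eln lie out along clone 2 near 0 for clone 4, while Cxcl1, Angptl7, Mrc1 and Fcrls lie away from WT in both clones.

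Of the secreted factors, Cxcl1 and Ppbp were the chemokines that lay higher in both mutant clones with the widest margins. Cxcl1, a chemokine that attracts neutrophils, read 8.83 in WT clone 1, 8.48 in WT clone 16, 14.21 in clone 2 and 9.95 in clone 4. Both mutant arrays were above both WT arrays by at least 1.12, but clone 2 stood 4.27 above clone 4. The difference of the means was 3.42 ± 1.35 (limma SE, n = 2 per group), and it was 1.29 without clone 2. Ppbp, another chemokine of the same class that is best known from platelets, read 5.68 and 6.43 in WT and 7.71 and 7.01 in E2F3 L430Q (1.30 ± 0.37), and a second probe of the gene pointed the same way (1.64).

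Angptl7, a secreted angiopoietin-like protein, had the second widest margin among the higher genes. It read 6.67 and 5.35 in WT clones 1 and 16 and 9.40 and 7.46 in clones 2 and 4, a difference of 2.41 ± 0.76. The groups did not overlap, but each genotype's own arrays were over 1 log2 unit apart. Esm1, a secreted proteoglycan of endothelium, was nearly level in the mutant clones (6.68 and 6.73) and lay above 6.15 and 5.32 in WT (0.97 ± 0.32).

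Enzymes and membrane proteins made up most of the other named genes on this side. Ugt1a6a, a UDP-glucuronosyltransferase of xenobiotic and quinone detoxification, read 5.72 and 5.36 in WT against 7.18 and 6.33 in E2F3 L430Q (1.22 ± 0.35). Its other probes gave 0.49 and 0.33, with clone 4 below both WT arrays on each, so the separation held on the brightest probe only. Aqp1, a water channel, read 8.5 and 9.07 in WT against 10.30 and 9.57 (1.15 ± 0.35), and its 2 other probes gave 1.34 and 1.38. It was the brightest of the 12 genes with the widest margins after Cxcl1.

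The remaining genes of this group were dim. Syngr3, a synaptic vesicle protein, was 0.96 ± 0.27 higher, and Rdh12, a retinol dehydrogenase, was 0.82 ± 0.26 higher. Polr3g, a subunit of RNA polymerase III, and Golt1a, a Golgi transport protein, were not well above background on either WT array, which leaves bounds of at least 1.30-fold and at least 1.26-fold higher. Here and for the genes named as bounds in the rest of the text, the bound sets the mean of the brighter group against the lowest signal called detected on the dim arrays, or the probe's own value where that was higher. Camk2b, a calcium-dependent kinase, and Kdm5c, an X-linked histone H3K4 demethylase, were detected on 1 of the 2 WT arrays, and the 2 other Kdm5c probes gave -0.16 and 0.05.

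**Figure D2:**
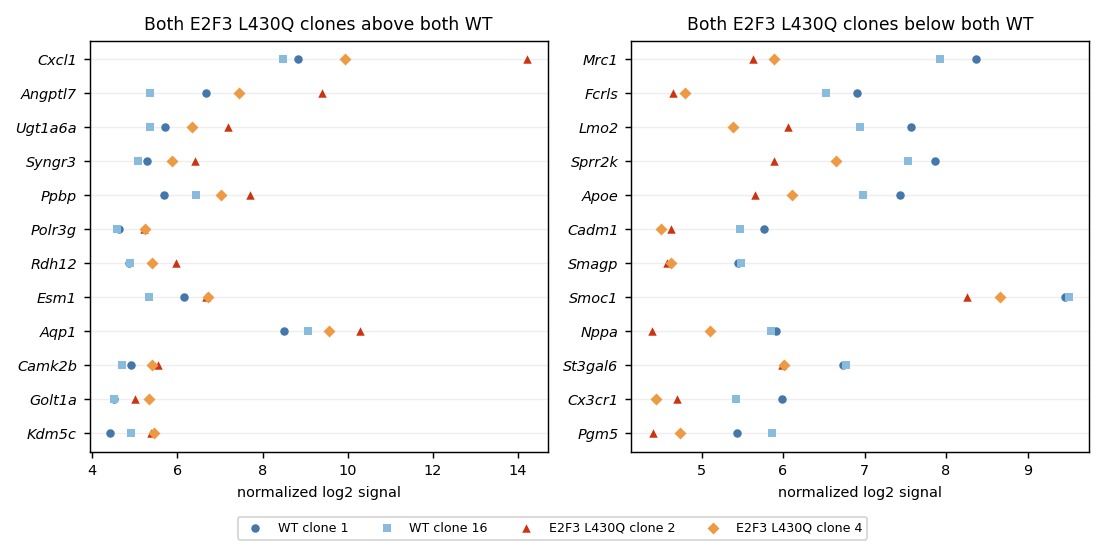
Normalized log2 signal (x axis) on each of the 4 proliferating arrays for the 12 named genes with the widest margins in each direction; each symbol is 1 array. The left panel holds genes with both E2F3 L430Q clones above both WT clones, led by Cxcl1 at 14.21 in clone 2, and the right panel holds genes with both below, led by Mrc1 at 5.63 and 5.90 against 8.37 and 7.92.

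A further list holds the genes picked for RT-PCR in proliferating MEFs. Of its 12 genes, 11 passed the detection filter (Il1rl1 had no probe). Since the study chose this list on these cells, its direction is not independent evidence. Of the 11, 7 were separated and higher and 0 lower, beside 8.91% and 12.4% of all features. Their median difference was 0.94, made up of 1.5 in clone 2 and 0.38 in clone 4. Slc7a11, Nfkbie and Vegfc, which were separated beside Cxcl1, Ppbp and Ugt1a6a, lay far higher in clone 2 than in clone 4, whereas Ccne1 lay higher in clone 4.

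Slc7a11, the cystine importer that feeds glutathione synthesis, read 5.61 and 6.05 in WT, 8.22 in clone 2 and 6.25 in clone 4. Nfkbie, an inhibitor of NF-kB that NF-kB itself switches on, read 5.34 and 5.45 in WT, 6.89 in clone 2 and 5.80 in clone 4. Vegfc, a growth factor for lymphatic vessels, was at 7.15 and 7.09 in WT, 8.63 in clone 2 and 7.27 in clone 4. In all 3 genes clone 4 lay above the nearer WT array by 0.35 or less.

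Srxn1, which repairs oxidized peroxiredoxins, Ptx3, a secreted pentraxin, and Mdm2, the ligase that degrades p53, overlapped WT on their brightest probes. Srxn1 read 8.97 and 8.80 in WT, 10.38 in clone 2 and 8.84 in clone 4, so its mean difference of 0.73 became -0.04 without clone 2. A dimmer Srxn1 probe was separated and higher (5.88 and 5.92 in WT against 6.77 and 6.26). Another overlapped WT (7.97 and 7.43 against 9.40 and 7.73). Ptx3 read 8.46 and 9.25 in WT, 10.35 in clone 2 and 9.23 in clone 4, and its other probe was separated and higher (7.62 and 8.46 against 9.54 and 8.60). Mdm2 read 11.47 and 11.42 in WT, 12.48 in clone 2 and 11.32 in clone 4. Among the cell cycle genes of the list, Ccne1 (cyclin E1, which drives entry into S phase) was at 6.60 and 6.60 against 6.63 and 6.93, and Cdk1, the mitotic kinase, at 9.48 and 9.27 against 8.98 and 9.67, so Cdk1 lay below WT in clone 2 and above WT in clone 4.

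E2f3 itself was detected on all 4 arrays. It read 7.23 and 7.13 in WT and 6.90 and 6.77 in E2F3 L430Q, a difference of -0.35 ± 0.20 with a margin of -0.22. The difference was -0.14 when the arrays were scaled to a common median, so its size depended on the scaling. The probe measures the transcript's level and cannot read the point mutation, which leaves the genotype labels unchecked. Of the other 9 E2F and Rb family genes that passed the filter, E2f2 and E2f6 were separated and lower and Tfdp1, which encodes a DP partner, was separated and higher, with margins of -0.10, -0.01 and 0.03. E2f1, the best known activating E2F, read 9.27 and 9.08 in WT against 9.09 and 9.23. Rb1, which encodes Rb, was at 7.04 and 6.96 in WT, 7.83 in clone 2 and 6.88 in clone 4.

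E2F target genes for DNA replication lay in opposite directions in the 2 mutant clones. Of 42 genes of DNA replication and the G1/S transition, clone 4 was above both WT arrays for 35 and below for 2, beside 31.7% and 27.6% of all features. Clone 2 was above both WT arrays for 10 and below for 27, beside 29.7% and 46.2% of all features. The medians were 0.38 in clone 4 and -0.17 in clone 2, beside 0.01 and -0.08 over all features. The median of the group difference was 0.08, and 8 of the genes were separated and higher and 2 lower, beside 8.91% and 12.4% of all features. That median was 0.26 when the arrays were scaled to a common median, which moved the median of all features from -0.03 to 0.13. The medians of each clone are given under the main scaling only.

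Tyms, thymidylate synthase, had the widest margin of these and was the same in both mutant clones (8.87 and 9.11 in WT against 9.41 and 9.42). Mcm6, a subunit of the replicative helicase, read 8.59 on both WT arrays, 8.70 in clone 2 and 9.36 in clone 4, a difference of 0.44. Its 2 other detected probes gave 0.33 and 0.28, and on these clone 2 lay between the WT arrays. The other separated genes were Cdt1, which loads the helicase, Chaf1a, Cdc45, Gins3, Msh6 and Ccne1. Cdc25a, a phosphatase that activates cyclin-dependent kinases, was lower (7.09 and 7.14 against 6.87 and 6.75), as was Rfc4, a subunit of the clamp loader. The Cdc25a difference was -0.30, and -0.09 when the arrays were scaled to a common median. Mcm5, of the same helicase as Mcm6, shows the more common pattern: 9.08 and 9.15 in WT, 8.67 in clone 2 and 9.63 in clone 4.

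Mitotic genes were split between the clones in the same way. Of 19 mitosis and G2/M genes, 0 were separated. Clone 2 lay below both WT arrays for 18 of them and clone 4 above both for 16, beside 46.2% and 31.7% of all features. The medians were -0.43 and 0.31, beside -0.08 and 0.01 over all features. The median of the group difference was -0.05, and 0.13 when the arrays were scaled to a common median. Cdc20, an activator of the anaphase-promoting complex, read 9.58 and 9.62 in WT, 8.86 in clone 2 and 9.91 in clone 4. Cenpa, the centromeric histone, read 10.67 and 11.02 in WT, 10.55 in clone 2 and 11.43 in clone 4. Genes of cholesterol and fatty acid synthesis, a further growth programme, had medians of -0.19 in clone 2 and 0.31 in clone 4 over 19 genes. Over all features these were -0.08 and 0.01. The WT clones differed by a similar amount on this list, with a median of 0.31 for WT clone 16 minus WT clone 1.

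The promoters of Mcm6 and E2f3 are printed because both carry the letters of an E2F site close to the start of transcription. The sequences are RefSeq's, on build GRCm38.p6, and hold the 160 bases up to the base before the start, with each E2F site (TTTCCCGC or TTTGGCGC, on either strand) in capitals.
Mcm6, chr1:128359706-128359865, minus strand: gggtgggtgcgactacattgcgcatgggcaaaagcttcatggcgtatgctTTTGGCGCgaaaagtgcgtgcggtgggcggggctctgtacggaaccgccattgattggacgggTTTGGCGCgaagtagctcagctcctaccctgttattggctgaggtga
E2f3, chr13:29986064-29986223, minus strand, 1 of 2 starts: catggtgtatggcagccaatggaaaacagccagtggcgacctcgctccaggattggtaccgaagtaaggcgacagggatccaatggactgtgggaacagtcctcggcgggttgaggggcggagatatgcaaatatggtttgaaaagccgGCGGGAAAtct

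The 2 sites of Mcm6 lie 110 to 103 and 47 to 40 bases before the start, and the site of E2f3 lies 11 to 4 bases before its start. In windows from 250 bases before to 50 bases after the start, either E2F site was found in 11 of 37 DNA replication genes with a promoter sequence (29.7%), beside 3.21% of the 7100 named genes with a promoter and 1.56% of all 32851 promoters. Among genes separated with a margin over 0.2 the share was 1.79% (2 of 112) for the higher and 3.31% (6 of 181) for the lower ones, which is near that of all genes. These are matches of letters, not bound sites.

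**Figure D3:**
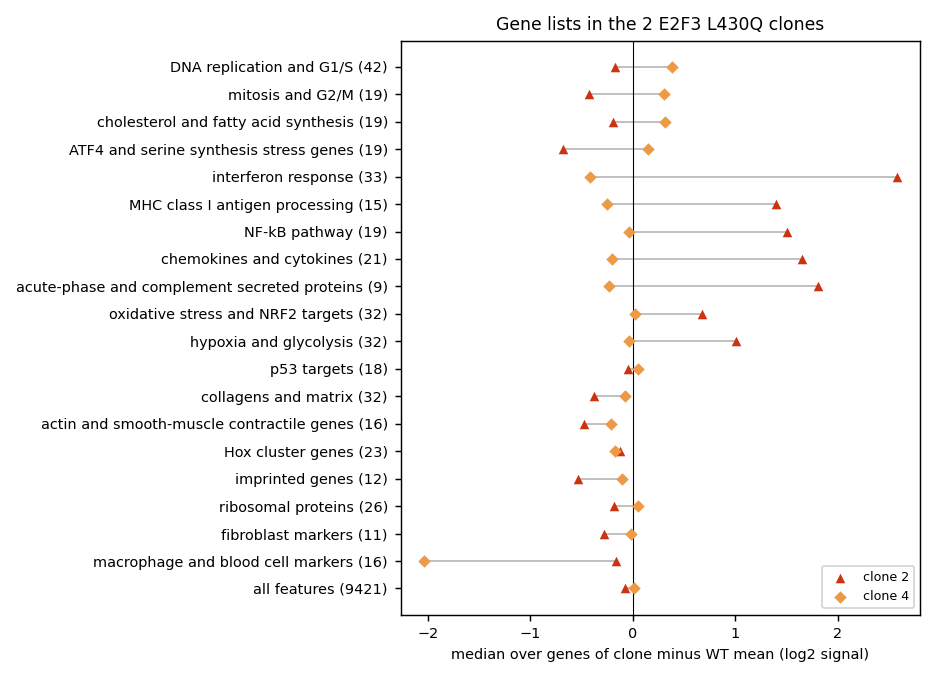
Median over the genes of each list of the difference from the WT mean (x axis, log2 signal) in E2F3 L430Q clone 2 (triangles) and clone 4 (diamonds), with the number of genes in brackets. The interferon list lies at 2.58 in clone 2 and -0.42 in clone 4, the macrophage list at -0.16 and -2.04, and the DNA replication list at -0.17 and 0.38.

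The feature farthest above the other 3 arrays in clone 2 was Saa3, an acute-phase apolipoprotein. It read 4.89 and 4.75 in WT and 4.72 in clone 4 but 13.83 in clone 2. Haptoglobin (Hp), an acute-phase haemoglobin binder, read 7.24 and 7.08 in WT, 6.55 in clone 4 and 13.06 in clone 2. On both genes the other 3 arrays lay close together. Ceruloplasmin (Cp), the plasma copper carrier, was at 9.97 in clone 2 against 5.50 to 5.67 on the other arrays, and counts as separated by a margin of 0.01. Of 9 acute-phase and complement genes that passed the filter, 6 were moved in clone 2 only and higher, beside 2.36% of all features.

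Some chemokines that attract monocytes and T cells were high in clone 2 only. Ccl5 read 6.03 and 4.83 in WT, 4.41 in clone 4 and 12.21 in clone 2. Ccl2, the main monocyte attractant, read 6.65 and 5.65 in WT, 5.31 in clone 4 and 11.51 in clone 2. Ccl7 and Cxcl16 stood at 11.55 and 11.11 in clone 2 against 6.28 to 7.91 on the other arrays. Lif, a cytokine of the interleukin 6 family, was at 9.05 in clone 2 against 4.76 to 5.44. Over 21 chemokines and cytokines the median was 1.65 in clone 2 and -0.20 in clone 4. Of these, 10 were moved in clone 2 only and higher, beside 2.36% of all features.

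Interferon-stimulated genes were high in clone 2 nearly throughout. Of 33 that passed the filter, 28 were moved in clone 2 only and higher, beside 2.36% of all features. Clone 2 lay above both WT arrays for 32 and clone 4 below both for 24, beside 29.7% and 27.6% of all features. The exception in clone 2 was Zbp1, a sensor of unusual nucleic acids, at 5.52 against 5.94 and 6.05. The list's median was 2.58 in clone 2 and -0.42 in clone 4. Rsad2 (viperin, an antiviral enzyme) read 5.36 and 5.03 in WT, 5.23 in clone 4 and 10.21 in clone 2. Ifit3, which acts with RNA-binding antiviral proteins, read 9.57 and 9.04 in WT, 8.71 in clone 4 and 12.97 in clone 2. Gbp2, a guanylate-binding protein, read 8.57 and 8.11 in WT, 7.96 in clone 4 and 12.22 in clone 2.

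The regulators of this response showed the same order. Irf7, the master transcription factor of type I interferon induction, read 5.51 and 4.81 in WT, 4.61 in clone 4 and 9.20 in clone 2. Stat2, which carries the interferon signal to the nucleus, read 7.27 and 7.31 in WT, 7.01 in clone 4 and 9.23 in clone 2. Oasl2, Isg15 and Usp18, the last of which strips ISG15 from proteins, were over 1 log2 unit above the other arrays in clone 2 and over 1 below them in clone 4. Oasl2, for example, read 6.97 and 6.84 in WT, 10.11 in clone 2 and 5.38 in clone 4. Genes of MHC class I antigen processing, many of them induced by interferon, had medians of 1.39 in clone 2 and -0.25 in clone 4. Of 15, 10 were moved in clone 2 only and higher, beside 2.36% of all features. Psmb8, an immunoproteasome subunit, read 5.14 and 4.61 in WT, 4.51 in clone 4 and 7.72 in clone 2.

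NF-kB pathway genes were higher in clone 2 and mixed in clone 4. Of 19, 11 were moved in clone 2 only and higher, beside 2.36% of all features, and the medians were 1.5 and -0.04. Tlr2, a receptor for bacterial lipoproteins, read 7.07 and 6.81 in WT, 6.90 in clone 4 and 11.02 in clone 2. Nfkbia, the inhibitor IkB-alpha, read 7.79 and 7.55 in WT, 7.44 in clone 4 and 10.44 in clone 2. Of the subunits, Rela was close to level on the 4 arrays (10.10 to 10.59), whereas Relb was separated and higher (6.71 and 6.68 against 7.96 and 6.86).

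Promoters are printed for 3 interferon genes of clone 2 and for 2 NF-kB target genes that were separated, because their promoters hold the letters of the elements that the factors of these pathways bind. Capitals mark the interferon-stimulated response element (both strands, found by its consensus) in Rsad2, Ifit3 and Gbp2 and the NF-kB consensus in Cxcl1 and Nfkbie, in the same 160-base windows from RefSeq on GRCm38.p6.
Rsad2, chr12:26456453-26456612, minus strand: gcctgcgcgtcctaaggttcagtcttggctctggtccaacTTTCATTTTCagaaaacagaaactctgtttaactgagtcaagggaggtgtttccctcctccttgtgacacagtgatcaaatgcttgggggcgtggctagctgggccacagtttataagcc
Ifit3, chr19:34583369-34583528, plus strand: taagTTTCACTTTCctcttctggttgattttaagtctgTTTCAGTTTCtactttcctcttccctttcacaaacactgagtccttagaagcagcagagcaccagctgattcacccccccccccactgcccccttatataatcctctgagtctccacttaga
Gbp2, chr3:142620503-142620662, plus strand: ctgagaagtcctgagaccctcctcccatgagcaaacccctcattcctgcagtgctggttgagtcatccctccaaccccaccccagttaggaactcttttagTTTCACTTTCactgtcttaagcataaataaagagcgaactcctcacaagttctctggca
Cxcl1, chr5:90891085-90891244, plus strand: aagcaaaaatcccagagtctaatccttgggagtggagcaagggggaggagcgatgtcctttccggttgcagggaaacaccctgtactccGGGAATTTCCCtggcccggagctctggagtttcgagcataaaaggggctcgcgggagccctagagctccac
Nfkbie, chr17:45555540-45555699, plus strand: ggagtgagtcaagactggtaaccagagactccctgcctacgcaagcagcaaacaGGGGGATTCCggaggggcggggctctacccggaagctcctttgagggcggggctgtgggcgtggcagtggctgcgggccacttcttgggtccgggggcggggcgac

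The element of Rsad2 lies 120 to 111 bases before the start and that of Gbp2 lies 59 to 50 before it, while Ifit3 has a pair, at 156 to 147 and 122 to 113. Cxcl1 holds 2 overlapping NF-kB matches between 71 and 61 bases before its start, and Nfkbie holds 1 at 106 to 97. Over the 300-base windows, the interferon element was found in 26 of 162 genes moved in clone 2 only and higher (16%), beside 3.63% of all named genes with a promoter, 3.44% of all promoters and 14 of 26 interferon genes (53.8%). The NF-kB consensus was found in 20 of those 162 (12.3%), beside 6.34% of named genes, 4.51% of all promoters and 8 of 14 NF-kB pathway genes (57.1%). Genes that were separated and higher with a margin over 0.2 held the interferon element in 2 of 112 (1.79%) and the NF-kB consensus in 6 of 112 (5.36%), at or below the share of all named genes.

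Of 14 proteases and inhibitors that passed the filter, 3 were moved in clone 2 only and higher (Mmp3, Mmp13 and Mmp9), while 6 were separated and lower and 0 higher. The shares of all features were 2.36%, 12.4% and 8.91%. The list's median was -0.27 in clone 2 and -0.16 in clone 4, so these 3 genes lay apart from the rest of it. Mmp3 (stromelysin) read 6.58 and 5.94 in WT, 6.31 in clone 4 and 13.67 in clone 2, and 2 other probes of it showed the same single high array. Mmp13 (a collagenase) read 8.62 and 9.16 in WT, 13.01 in clone 2 and 7.46 in clone 4. Mmp9 (a gelatinase) was at 7.79 in clone 2 against 4.75 to 5.63 on the other arrays. Of the inhibitors and membrane-bound enzymes, Timp2 read 13.19 and 13.10 in WT against 12.87 and 12.98, and Mmp14 read 12.86 and 12.85 against 12.58 and 12.71. Timp3, which binds to the matrix, read 12.05 and 11.47 in WT, 10.60 in clone 2 and 11.46 in clone 4, so its separation rested on a margin of -0.01.

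Of 32 hypoxia and glycolysis genes, 11 were moved in clone 2 only and higher, beside 2.36% of all features. Clone 2 lay above both WT arrays for 29 of them, beside 29.7% of all features, with a median of 1.00 against -0.04 in clone 4. Angptl4, a secreted inhibitor of lipoprotein lipase, read 7.71 and 7.97 in WT, 7.45 in clone 4 and 11.36 in clone 2. Egln3, an oxygen-sensing prolyl hydroxylase, read 5.02 and 5.62 in WT, 5.23 in clone 4 and 7.91 in clone 2. Ddit4 and Fam162a were separated and higher, at 10.39 and 11.63 in clone 2 but at 9.71 and 10.26 in clone 4 against 9.37 to 9.45 and 9.98 to 10.09 in WT.

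Oxidative stress genes, many of them targets of the transcription factor NRF2, had 8 of 32 separated and higher, 1 lower and 6 moved in clone 2 only and higher. The shares of all features were 8.91%, 12.4% and 2.36%. The list's medians were 0.67 in clone 2 and 0.02 in clone 4. Hmox1, haem oxygenase 1, read 7.53 and 7.27 in WT, 9.79 in clone 2 and 7.57 in clone 4. Nqo1, a quinone reductase, read 6.70 and 6.46 in WT, 8.81 in clone 2 and 6.77 in clone 4. Mt1, a metallothionein, read 13.36 and 13.32 in WT, 14.48 in clone 2 and 13.70 in clone 4 and had the widest margin of this list after Ugt1a6a, 0.34. The promoter element of NRF2 (TGACNNNGC) was found in 8 of 29 of these genes (27.6%), beside 16.7% of all named genes and 12.4% of all promoters.

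**Figure D4:**
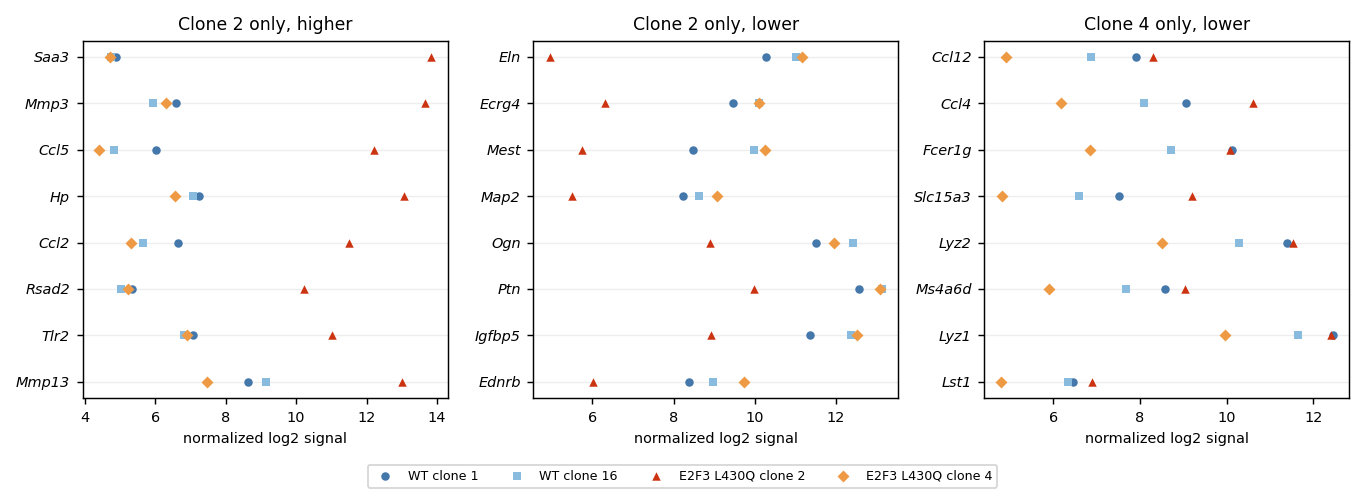
Normalized log2 signal (x axis) on each of the 4 proliferating arrays for the 8 named genes that lay farthest outside the other 3 arrays; each symbol is 1 array. Clone 2 stands apart in the left panel (Saa3 at 13.83 against 4.72 to 4.89) and the middle panel (Eln at 4.95 against 10.29 to 11.16), and clone 4 in the right panel (Ccl12 at 4.90 against 6.87 to 8.30).

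The genes that were low in clone 2 only were of another kind. Eln, tropoelastin of elastic fibres, read 10.29 and 11.02 in WT, 11.16 in clone 4 and 4.95 in clone 2. Ogn, a small proteoglycan of the matrix, read 11.52 and 12.43 in WT, 11.96 in clone 4 and 8.90 in clone 2, and Ptn, a heparin-binding growth factor, read 12.57 and 13.14 in WT, 13.08 in clone 4 and 9.98 in clone 2. Ecrg4, a secreted growth suppressor, stood at 6.32 in clone 2 against 9.47 to 10.11 on the other arrays. Igfbp5, which binds insulin-like growth factors, stood at 8.92 against 11.36 to 12.53, and Ednrb, an endothelin receptor, at 6.01 against 8.38 to 9.75. Map2, a microtubule protein, was at 5.50 against 8.22 to 9.06 on its brightest probe, but its 2 other probes gave 0.09 and 0.05 for the group difference.

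Imprinted growth regulators were among them. Of 12 imprinted genes that passed the filter, 5 were moved in clone 2 only and lower (Mest, Cdkn1c, Peg3, Dlk1 and Grb10) and 1 was higher. The shares of all features were 0.998% and 2.36%. The list's medians were -0.53 in clone 2 and -0.11 in clone 4. The WT clones also differed on this list, with a median of 0.45 for WT clone 16 minus WT clone 1. Mest, a hydrolase expressed from the paternal allele, read 8.48 and 9.97 in WT, 10.26 in clone 4 and 5.73 in clone 2. Cdkn1c, the cyclin-dependent kinase inhibitor p57, read 11.21 and 12.52 in WT, 12.07 in clone 4 and 9.25 in clone 2. Grb10, a brake on insulin signalling, lay nearest the limit of the rule, at 11.56 in clone 2 against 12.60 to 13.07 on the other arrays.

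A list of ATF4, serine synthesis and stress genes, chaperones such as Hspa5 included, was also low in clone 2 on balance. Of 19, 6 were moved in clone 2 only and lower (Slc7a5, Chac1, Phgdh, Mthfd2, Trib3 and Shmt2) and 1, Atf3, was higher. The shares of all features were 0.998% and 2.36%. The list's medians were -0.68 in clone 2 and 0.14 in clone 4. Slc7a5, the leucine importer, read 11.24 and 11.59 in WT, 11.74 in clone 4 and 9.26 in clone 2. Phgdh, the first enzyme of serine synthesis, read 9.0 and 9.16 in WT, 9.18 in clone 4 and 7.69 in clone 2. Atf4 itself lay between 9.72 and 9.96 on all 4 arrays.

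The limit of 1 log2 unit passes through a continuous range of values. Just inside it for clone 2 were Gng2 (1.006 above the other arrays) and Rdm1 (1.002 below), and just outside were Vdr (0.991 above) and L3mbtl3 (0.998 below). For clone 4, Usp18 was just inside (1.003 below) and Lrrc15 just outside (0.997 below).

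Several of the genes farthest below WT in both mutant clones are genes of macrophages. Mrc1, the macrophage mannose receptor, read 8.37 and 7.92 in WT and 5.63 and 5.90 in E2F3 L430Q, a difference of -2.38 ± 0.25 (limma SE, n = 2 per group) and the widest margin of all named genes (-2.03). Fcrls, an Fc receptor-like protein of tissue macrophages and microglia, read 6.90 and 6.52 in WT and was not well above background in either mutant clone (4.65 and 4.80), at least 3.74-fold lower. Cx3cr1, the fractalkine receptor, was at least 1.85-fold lower (5.99 and 5.42 against 4.70 and 4.44, neither well above background). Lmo2, a haematopoietic and endothelial cofactor, read 7.57 and 6.95 in WT and 6.06 and 5.39 in E2F3 L430Q (-1.53 ± 0.35), and Apoe, a lipid carrier that macrophages secrete, read 7.44 and 6.98 against 5.66 and 6.11 (-1.33 ± 0.28).

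Complement C1q, whose 3 chains macrophages make, was lower as a set. C1qa read 7.52 and 6.44 in WT against 5.82 and 4.73. C1qb read 9.98 and 8.64 in WT against 8.41 and 6.88. C1qc read 9.22 and 7.91 in WT against 7.30 and 6.22. On each of the 3 the 2 WT arrays were over 1 log2 unit apart, and so were the 2 mutant arrays.

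The whole marker list for macrophages and blood cells had 20 genes with a probe, of which 16 passed the filter, and 8 were separated and lower and 0 higher, beside 12.4% and 8.91% of all features. The list's signal summed to 13990 in WT clone 1, 7174 in WT clone 16, 12250 in clone 2 and 2219 in clone 4, so the groups overlapped on the sum. Of the 20 markers 16 were detected in each WT clone, 14 in clone 2 and 9 in clone 4, and Ptprc, Ctss, Itgam and Hba-a1 were not detected on any of the 4. The medians were -0.16 in clone 2 and -2.04 in clone 4. Clone 4 lay below both WT arrays for all 16, beside 27.6% of all features. Clone 2 lay below both for 8 and above both for 4, beside 46.2% and 29.7%. Adgre1 and Cd52 were over 1 log2 unit above the other arrays in clone 2 and over 1 below them in clone 4. Fewer cells of a type and less RNA per cell cannot be told apart in such arrays, and the part of this list in the other results was not tested.

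Of the 26 features low in clone 4 only, 6 belong to this marker list, and others are known from the same cells. Lyz2, the lysozyme of macrophages, read 11.40 and 10.29 in WT, 11.53 in clone 2 and 8.51 in clone 4. Fcer1g, the signalling chain of Fc receptors, read 10.13 and 8.71 in WT, 10.06 in clone 2 and 6.85 in clone 4. Ccl12 and Ccl4, chemokines that attract monocytes and lymphocytes, stood at 4.90 and 6.18 in clone 4 against 6.87 or higher on the other arrays. Slc15a3, a lysosomal peptide transporter, read 7.52 and 6.60 in WT, 9.20 in clone 2 and 4.81 in clone 4. The lone gene that was higher in clone 4 only was Msx1, a homeobox factor of limb and craniofacial mesenchyme, at 7.46 against 4.95 to 6.35.

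The rest of the 12 named genes with the widest margins below WT have varied known roles. Smoc1, a secreted matricellular protein, was the brightest of these at 9.46 and 9.50 in WT against 8.26 and 8.66 (-1.02 ± 0.23). St3gal6, a sialyltransferase, was tightly grouped at 6.73 and 6.77 against 5.99 and 6.01 (-0.75 ± 0.20). Sprr2k, a cornified-envelope protein, read 7.86 and 7.53 against 5.89 and 6.64. Cadm1, an adhesion molecule, Smagp, a small membrane glycoprotein, and Pgm5, a protein of adherens junctions in muscle, were not well above background in either mutant clone and were at least 1.75-fold, 1.57-fold and 1.78-fold lower. Nppa, the atrial natriuretic peptide, read 5.92 and 5.85 in WT, 4.39 in clone 2 and 5.11 in clone 4.

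Contractile and cytoskeletal genes were below WT on balance in both clones. All 16 actin and smooth-muscle contractile genes that passed the filter had a negative mean difference, while 4119 of 9421 features had a positive one. Of the 16, 7 were separated and lower and 0 higher, beside 12.4% and 8.91% of all features. Their medians were -0.48 in clone 2 and -0.22 in clone 4. The WT clones also differed on this list, with a median of -0.30 for WT clone 16 minus WT clone 1. Clone 2 lay below both WT arrays for 14 and clone 4 for 8, beside 46.2% and 27.6% of all features. Myh11, smooth-muscle myosin, read 7.29 and 6.48 in WT against 5.54 and 5.99. Myh9, non-muscle myosin, read 11.66 and 11.69 in WT and 11.25 in both mutant clones. Acta2, smooth-muscle actin and among the brightest genes on the arrays, read 15.14 and 14.93 against 14.59 and 14.77.

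Collagens and other matrix genes had 8 of 32 separated and lower and 1 higher, beside 12.4% and 8.91% of all features. Their medians were -0.38 in clone 2 and -0.08 in clone 4. Col4a1, a chain of basement membrane collagen, read 12.54 on both WT arrays against 11.80 and 12.07 (-0.61). Nid1, which links laminin to collagen IV, read 10.89 and 10.75 against 10.31 and 10.29 (-0.52). Col1a2, a chain of fibrillar collagen I, read 9.33 and 9.35 against 8.28 and 8.95 (-0.72). Col18a1, the source of endostatin, was the gene separated and higher, at 9.63 and 10.02 in WT against 11.02 and 10.23. Of the 32, 7 had a positive mean difference. In clone 2 only, 2 were moved and higher and 4 lower, beside 2.36% and 0.998% of all features.

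Hox genes, which fix position along the body axis and differ between fibroblasts of different sites, had 7 of 23 separated and lower and 1 higher. The shares of all features were 12.4% and 8.91%. Hoxa7 read 9.17 and 9.31 in WT against 8.74 and 8.32, Hoxb4 read 6.58 and 6.96 against 5.92 and 6.17, and Hoxc9 read 9.49 and 9.28 against 8.95 and 8.98. Hoxd13, a gene of the distal limb, was the higher one (5.60 and 5.79 against 5.90 and 6.61). The list's median was -0.12 here and 0.03 when the arrays were scaled to a common median, so its direction depended on the scaling.

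The arrays of the same clones after 72 h without serum were not used to define these groups of genes. Of genes separated and lower in proliferating MEFs by over 0.2, 35.1% were also separated and lower in the starved arrays and 7.97% higher, beside 16.9% and 17.2% of all features with the same probe in both normalizations (17% higher and 16.9% lower of all 10214 features on the 8 arrays). Of those separated and higher by over 0.2, 26.2% were also higher and 10.6% lower. The clones are the same in both states, so a difference between clones is carried along with a difference between genotypes. The difference of the genotype effect between the states passed limma's test for 0 of 10214 features (0%; 156, or 1.53%, at an unadjusted p under 0.05).

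Mrc1 and Angptl7 show what was and was not shared. Angptl7 in starved MEFs read 5.59 and 4.72 in WT against 6.43 and 6.47 in E2F3 L430Q, so both mutant clones again lay above WT. Mrc1 read 5.21 and 5.15 against 4.35 and 5.16 and overlapped. Cxcl1 was high on all 4 starved arrays, at 14.39 and 14.13 in WT and 14.36 in both mutant clones. E2f3 read 6.54 and 6.65 in starved WT against 6.14 and 6.01, and Mcm6 read 7.25 and 7.29 against 8.13 and 8.52, so both lay on the same side of WT as in the proliferating arrays.

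The genes high in clone 2 only were chosen for lying above the other proliferating arrays, so that gap follows from the rule. The starved arrays were not used to choose them. There the median level lay between that of proliferating clone 2 and those of the other proliferating arrays. Over the 222 features moved in clone 2 only and higher, the median level was 6.87 and 6.49 in proliferating WT, 6.15 in clone 4 and 9.08 in clone 2, and it was 7.96 to 8.35 on the 4 starved arrays. For the interferon genes it was 7.10 and 6.83 in proliferating WT, 6.64 in clone 4 and 9.84 in clone 2, and 9.0 to 9.75 on the starved arrays. Saa3 was at 13.37 or more on every starved array. The features moved in clone 2 only and lower stood at 6.09 in proliferating clone 2. Their median was 7.14 to 7.65 on the starved arrays and 7.66 to 8.27 on the other proliferating arrays. The cell cycle lists did not follow this order: the mitosis genes stood at 7.34 in proliferating clone 2, between the 7.84 to 8.22 of the other proliferating arrays and the 6.13 to 6.61 of the starved ones.

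**Figure D5:**
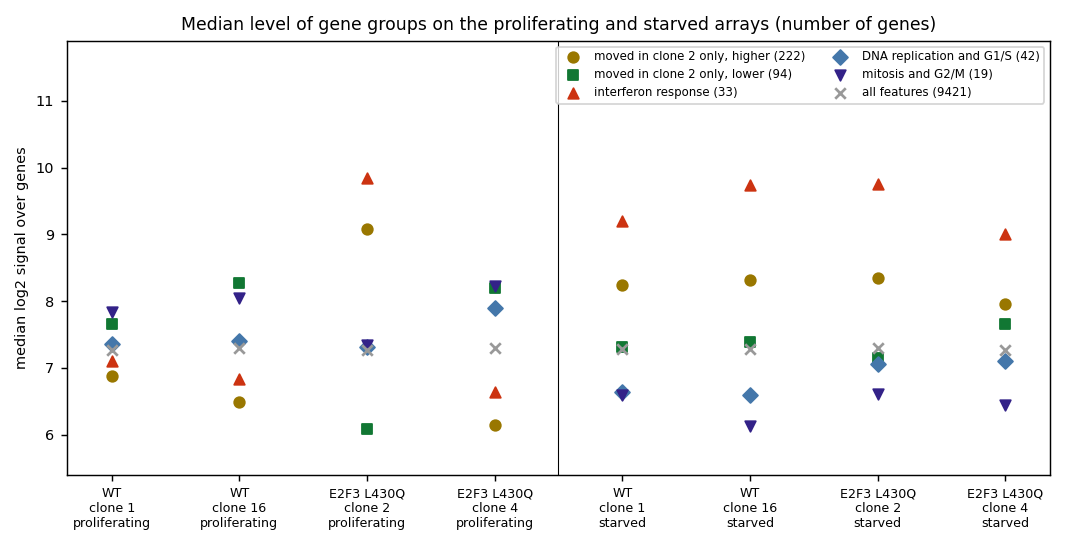
Median level (y axis, log2 signal) of gene groups on the 4 proliferating arrays (left of the line) and the 4 starved arrays of the same clones (right), normalized together; each symbol is 1 gene group on 1 array, with the number of genes in brackets. The interferon genes stand at 9.84 in proliferating clone 2 and at 9.0 to 9.75 on the starved arrays, against 6.64 to 7.10 on the other proliferating arrays.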

How the data were processed

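RNA of 4 proliferating MEF clones, and of the same clones starved for 72 h, was hybridized by the authors to Illumina mouse bead arrays. The labels name TRIzol with an RNeasy clean-up, and the study's methods name a miRNeasy kit. The authors deposited, per probe and array, an intensity that shows neither background correction nor normalization, and a detection p-value. A second deposited table of intensity values, normalized by the authors in GenomeStudio, served as an alternative only. Gene names came from the platform annotation: 23978 of 25697 probes had 1 symbol, 0 had several and 1719 had none.

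The 4 arrays were background corrected and quantile normalized together with neqc in limma 3.58.1 (R 4.3.3; offset 16). Probes detected at p under 0.05 on at least 2 of the 4 arrays were kept (12542), and the probe with the highest mean stood for a gene. Groups were compared with lmFit, eBayes and Benjamini-Hochberg adjustment over 9421 features (2 residual degrees of freedom). The normalization over all 8 arrays served the comparison with starved MEFs. The named genes were the 12 with the widest margins in each direction, the 8 farthest outside in 1 clone, and, from the gene lists, the study's RT-PCR genes and up to 4 genes a list; other list members named in the text were chosen after their values were seen. The comparison, rules and lists were chosen with earlier results of these data known. The code was tested on simulated data, with 200 genes changed. Promoter sequences came from RefSeq (GRCm38.p6): 7100 of 8701 named genes matched. Alternatives tried were other background corrections, scalings, filters and probe choices, the 8-array fit, the methods' t-test, a replicate block and leaving out each array. Probes of near-identical relatives, such as Lyz1 and Lyz2, may read both transcripts.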

Additional observations from a re-analysis of the deposited data

Results flagged for a closer look

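Of 128 named genes measured in both states, 11 lay on one side of WT in both mutant clones while proliferating and on the other side in both mutant clones while starved, as did 245 of 9345 features (2.62%). Many named genes were chosen for lying on one side of WT while proliferating, so these shares are not comparable. The difference between the states was tested with limma's interaction contrast and passed for none of the 11 (adjusted p of 1 for each). Apoe was lower in proliferating E2F3 L430Q MEFs (-1.33) and higher in starved ones (0.47; 7.67 and 7.24 in WT against 7.89 and 7.95). Cx3cr1, at -1.13 while proliferating, was at 0.16 while starved. Krt19, a keratin of simple epithelium, went from 1.12 to -0.17, Smagp from -0.86 to 0.04 and Rdh12 from 0.82 to -0.26. The starved arrays read 4.28 to 4.52 for Cx3cr1, 4.29 to 4.50 for Krt19 and 4.28 to 4.35 for Smagp. The lowest detected signals on the proliferating arrays were 4.81 to 4.84, so the starved order of these 3 genes is one among very dim readings.

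The other 6 differed from WT by less than 0.4 in both states. Cnn2, an actin-binding calponin, went from -0.39 to 0.16, C4b, a complement protein, from -0.26 to 0.28, and Mmp11, a matrix protease, from -0.25 to 0.30. Hspa5, a chaperone of the endoplasmic reticulum, went from 0.36 to -0.19, Sc5d, an enzyme of cholesterol synthesis, from 0.34 to -0.23, and Ccng1, a p53 target, from 0.10 to -0.26. Hspa5 was not well above background on either proliferating WT array and read 4.49 to 4.74 on the starved arrays, so it was dim in both states.

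Rfc4, which the report names outside the rule for named genes, went from -0.47 to 0.19, and its interaction did not pass either.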

How the results depend on the processing

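No feature passed limma's adjusted threshold under any alternative that kept all 4 arrays, the all-array fit and the methods' t-test included. Without single arrays the calls ran from 0 to 259 higher and 0 to 125 lower, the highest without clone 4. At an unadjusted p, 29 were higher and 72 lower. Separated features numbered 161 higher and 254 lower with 0.2 required between the nearest arrays, 2208 and 336 under median scaling, 2176 and 2591 with no detection filter, and 1982 to 2990 and 2542 to 4354 without single arrays, where fewer arrays had to agree.

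Features moved in clone 2 only came to 413 higher and 328 lower at 1.5-fold outside, 142 and 26 without background correction, and 42 lower with normexp at offset 50. For clone 4 only, higher features numbered 33 at 1.5-fold outside, 0 without background correction, 0 with normexp, 9 under median scaling and 2 without the filter; lower ones numbered 74, 4 and 7 under the first 3 of these. The causes were not tested.

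Leaving out single arrays gave list medians of -0.17 to 0.38 (DNA replication), -0.42 to 2.58 (interferon), -0.041 to 1.5 (NF-kB), -0.20 to 1.65 (chemokines), 0.020 to 0.67 (NRF2), -0.68 to 0.14 (ATF4), -0.38 to -0.079 (collagens), -2.04 to -0.16 (macrophage) and -0.28 to -0.013 (fibroblast), with clones 2 and 4 at the ends. The Hox median was 0.034 under median scaling. Srxn1 ran from -0.039 to 1.5, Mdm2 from -0.13 to 1.03 and Cdk1 from -0.40 to 0.29, and Cdk1 was at 0.14 under median scaling.

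The shared replicate numbers do not pair the clones by any label. With the number as a replicate block limma called 0 higher and 0 lower, and with the clone as a block the interaction passed for 0 features. The deviations of same-numbered arrays correlated at 0.496 over genes, and the numbers coincide with the Y-linked pattern. With 2 arrays a group, dim genes give bounds only.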

Other observations

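Genes of growth arrest were mixed. Of 16 that passed the filter, 3 were separated and higher and 2 lower, beside 8.91% and 12.4% of all features, so the lower count was near the background. Cdkn2b, the kinase inhibitor p15, read 9.80 and 10.00 in WT against 10.41 and 10.22, and Cdkn2a, which encodes p16 and ARF, read 7.49 and 7.01 against 8.03 and 7.62. Gas6, a ligand of receptor kinases named for its rise in growth arrest, read 11.42 and 11.47 in WT against 11.05 and 11.18. Of 13 genes of the insulin-like growth factor system, 2 were separated and lower, a share near the 12.4% of all features. One of these, Igf1, read 9.08 and 9.24 against 7.70 and 8.80.

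Setting each mutant clone against the WT clone with the same Y-linked pattern was chosen after the values were seen. Clone 2 stood over 1 log2 unit above WT clone 1 for 309 features (3.28%) and below it for 192 (2.04%). Clone 4 stood over 1 log2 unit above WT clone 16 for 16 features (0.17%) and below it for 54 (0.573%). Both pairs were past 1 unit upward for 3 features (Angptl7, Cxcl1 and 1 probe without a name) and downward for 12, among them C1qa, C1qb, C1qc, Fcrls, Laptm5, Lmo2 and Mrc1.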
